A study of Gallus gallus with 8 samples.

Results

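Among migrating cranial crest cells from chicken embryos, 179 of 17108 genes were on average at least 2-fold higher with 1 µg/ml of DAN than without it and stood at nearly the same mean level at 10 µg/ml. They are called plateau genes here, a name that stands for the rule and no more. They were chosen by the deposited RPKM, that is, reads scaled to gene length and to library totals adjusted by a factor per library (TMM). The rule asked for an untreated mean of at least 0.5 RPKM and a mean at 1 µg/ml of at least 2 times that. The mean at 10 µg/ml had to lie between 0.8 times the mean at 1 µg/ml and the reciprocal of that ratio, here called the window, and all 6 libraries with DAN had to lie above both untreated ones. All 8 libraries entered this rule, so the levels and changes of the plateau genes between doses are given as a description and carry no test of their own.

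Neural crest cells arise at the dorsal edge of the neural tube, leave it and migrate through the embryo, and those of the hindbrain level populate the face and the branchial arches. DAN, encoded by NBL1, is a secreted protein of a family that binds bone morphogenetic proteins outside the cell and keeps them from their receptors. Bone morphogenetic proteins take part both in forming the crest and in its departure from the tube.

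Neural tubes of the mid-hindbrain (rhombomeres 3 to 5) were taken from leghorn embryos at stage 8 of Hamburger and Hamilton, freed of other tissue with Dispase, and set on dishes coated with poly-D-lysine and fibronectin. The groups were untreated cultures (0 µg/ml, 2 libraries, replicates 2 and 3), cultures with 1 µg/ml of DAN (3 libraries) and cultures with 10 µg/ml of DAN (3 libraries). DAN was added to the medium overnight, and poly(A) RNA was taken from the cells left on the dish once tubes and ectoderm had been lifted off, 200 to 1000 cells per sample. The sources used here do not give the number of embryos per sample. The study's title concerns collective migration and the restraint of invasion by DAN. The genes are known here by Ensembl ID alone: 0 of the 17108 IDs matched the reference table of 25635 genes, so crest markers were not read, gene functions are not stated, and 2 genes are given by ID while others are identified by rank. In RNA from whole dishes, more cells of a type and more RNA of a gene per cell cannot be told apart.

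Libraries held 44338765 to 199084828 counts, and 15045 to 16239 genes had a count. Replicates with DAN differed from each other less than the untreated pair did, at a chi-square of 67.9 to 148 per degree of freedom over genes, where the untreated pair gave 341. At this depth 111 of the 179 plateau genes had at least 100 counts in every library, and 8 had fewer than 10 in some library, the lowest being 2.

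The plateau genes were mostly of low to middle abundance. Their mean level ran from 0.507 to 421 RPKM in untreated cells (median 2.13), from 1.23 to 1275 RPKM at 1 µg/ml (median 5.27) and from 1.09 to 1545 RPKM at 10 µg/ml (median 5.14). At 1 µg/ml the ratio of means to untreated cells had a median of 2.31 and reached 7.50. It lay between 2 and 2.5 for 119 genes, between 2.5 and 3 for 30, between 3 and 4 for 18 and at 4 or more for 12. At 10 µg/ml the ratio to untreated cells had a median of 2.35, with a range of 1.62 to 6.41, and 147 of the 179 genes were still at least 2-fold above untreated. Relative to its untreated mean, the median plateau gene stood at 0.846 and 1.15 in the untreated libraries, at 2.31, 2.28 and 2.40 at 1 µg/ml, and at 2.52, 2.23 and 2.18 at 10 µg/ml. The medians of all 6 libraries with DAN thus fell in a narrow band, and those of the untreated pair lay further apart in ratio than any of them. The rule holds the means of the doses together and sets no such limit between the untreated libraries, so nothing is read from this difference.

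**Figure D1:**
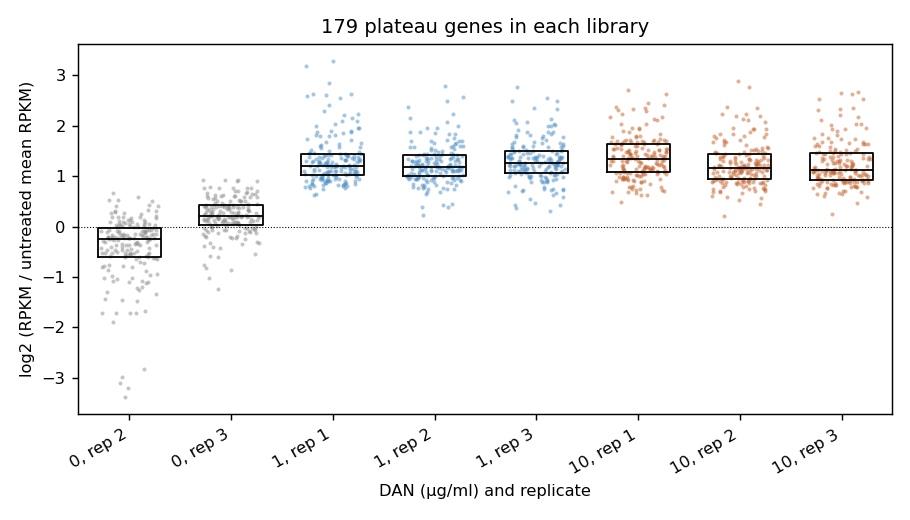
Level of each of the 179 plateau genes in the 8 libraries, as log2 of its RPKM over its own untreated mean; points are genes, boxes the middle 50% with the median, grey untreated, blue 1 µg/ml and orange 10 µg/ml. The medians with DAN correspond to 2.18 to 2.52 times the untreated mean, and untreated replicate 2 has a tail of genes far below untreated replicate 3.

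The gene with the largest ratio, ENSGALG00000029070, is a short model of 222 bases. It had 0.244 and 1.36 RPKM in untreated cells, 7.82, 4.78 and 5.45 RPKM at 1 µg/ml and 4.40, 5.94 and 5.08 RPKM at 10 µg/ml. The doses overlapped, and every library with DAN was more than 3-fold above the higher untreated one (at least 3.24-fold). The low untreated value rests on 3 counts, the other untreated library having 31. The log2 fold change was 2.82 ± 0.59 (SE) at 1 µg/ml and 2.58 ± 0.60 (SE) at 10 µg/ml. In edgeR's quasi-likelihood test its adjusted p was 0.051 at 1 µg/ml, above the threshold of 0.05, and 0.026 at 10 µg/ml. The rule used both contrasts. Against untreated replicate 3 alone the change at 1 µg/ml was 2.13, and against untreated replicate 2 alone it was 4.59.

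The gene with the second largest ratio was the most sharply parted of the set. It had 4.05 and 3.91 RPKM in untreated cells, 36.2, 20.7 and 22.4 RPKM at 1 µg/ml and 25.9, 20.4 and 24.6 RPKM at 10 µg/ml. Its lowest library with DAN was 5.04-fold above its highest untreated one, and its log2 fold changes were 2.72 ± 0.25 (SE) at 1 µg/ml and 2.56 ± 0.25 (SE) at 10 µg/ml. The third had even untreated levels too, 8.36 and 9.20 RPKM, against 38.8, 41.0 and 49.0 RPKM at 1 µg/ml and 25.04, 60.1 and 34.0 RPKM at 10 µg/ml. Its replicates at 10 µg/ml spread over more than a factor of 2 and enclosed all those at 1 µg/ml.

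The most abundant plateau gene, ENSGALG00000011511, with a model of 1638 bases, carried a large part of the set's total level. It had 282 and 561 RPKM in untreated cells, 1349, 726 and 1748 RPKM at 1 µg/ml and 1639, 1284 and 1714 RPKM at 10 µg/ml. Its value in replicate 2 at 1 µg/ml was 1.30-fold above the higher untreated library, while the other libraries with DAN were well apart. The log2 fold change was 1.59 ± 0.37 (SE) at 1 µg/ml and 1.87 ± 0.37 (SE) at 10 µg/ml; at 1 µg/ml it was 1.17 against untreated replicate 3 alone and 2.17 against untreated replicate 2 alone. Summed over the 179 genes the level was 1012 and 1694 RPKM in untreated cells, 3688, 2925 and 4193 RPKM at 1 µg/ml, and 4224, 3590 and 3980 RPKM at 10 µg/ml. Without this gene the sums were 730 and 1133, then 2339, 2199 and 2444, then 2585, 2306 and 2266 RPKM, in the same order of libraries. The plateau genes took 0.668% to 0.883% of all counts in libraries with DAN, and 0.266% and 0.331% in untreated libraries.

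The plateau genes next in abundance differed in how well their replicates held together. The second most abundant had 52.0 and 73.7 RPKM in untreated cells, 222, 225 and 236 RPKM at 1 µg/ml and 275, 239 and 201 RPKM at 10 µg/ml, so that its replicates at 1 µg/ml nearly coincided. The third most abundant had 31.4 and 41.5 RPKM in untreated cells, 90.2, 48.9 and 124 RPKM at 1 µg/ml and 110, 95.2 and 121 RPKM at 10 µg/ml. In this gene, as in the most abundant one, replicate 2 at 1 µg/ml was the lowest and replicate 3 at 1 µg/ml the highest of the libraries with DAN.

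The plateau genes varied widely in how even their replicates were. The plateau gene with the most even level over the 6 libraries with DAN (coefficient of variation 4.31%) was also the one with the smallest ratio at 1 µg/ml, 2.00. It had 0.605 and 0.947 RPKM in untreated cells, 1.499, 1.58 and 1.58 RPKM at 1 µg/ml and 1.63, 1.65 and 1.48 RPKM at 10 µg/ml. The least even one (48.9%) had 0.106 and 1.39 RPKM in untreated cells, 5.36, 1.49 and 2.25 RPKM at 1 µg/ml and 1.93, 2.74 and 3.02 RPKM at 10 µg/ml. Its lowest library with DAN was only 1.07-fold above the higher untreated one. Over the set the coefficient of variation between replicates had a median of 29.6% in untreated cells (2 libraries), 15.7% at 1 µg/ml and 15.2% at 10 µg/ml, against 25.4%, 12.7% and 13.3% over all 10957 genes with an untreated mean of at least 0.5 RPKM, whose median untreated level was higher (6.85 RPKM).

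**Figure D2:**
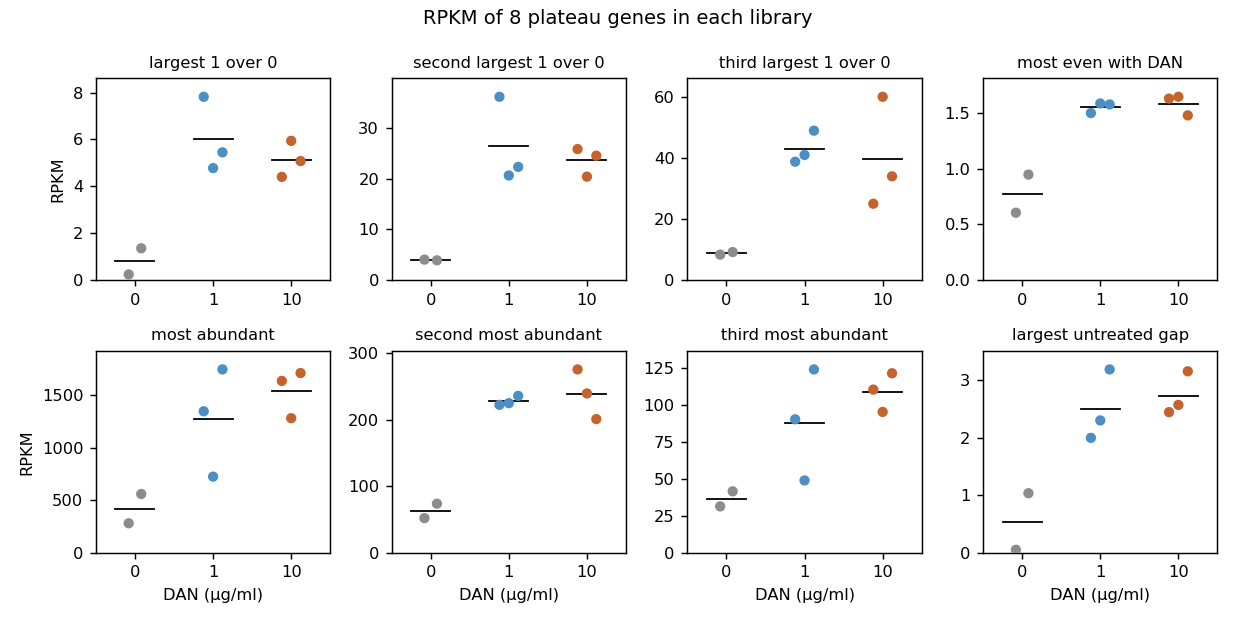
RPKM of 8 plateau genes by DAN dose, 1 point per library and a line at the group mean; the vertical axes start at 0 and differ between panels. The top row holds the 3 largest ratios of 1 over 0 µg/ml and the most even gene, the bottom row the 3 most abundant genes and the gene whose untreated libraries differ most (0.052 and 1.04 RPKM).

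Values close to the limits of the rule show how finely it divides neighbours. The gene just past the fold limit had a ratio of 2.002 and the gene just short of it 1.998. At the lower edge of the window the ratio of 10 over 1 µg/ml was 0.8002 inside and 0.798 outside, and at the upper edge it was 1.244 inside and 1.255 outside. The untreated means nearest the level limit were 0.507 RPKM inside and 0.489 RPKM outside. The narrowest accepted gap between groups was 1.142 RPKM in the lowest library with DAN against 1.141 RPKM in the highest untreated one, and the nearest refused gene had 1.73 against 1.80 RPKM.

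Most genes at least 2-fold higher at 1 µg/ml whose libraries with DAN all lay above untreated had like mean levels at both doses, as did most genes measured. In all, 1716 of the 10957 genes with an untreated mean of at least 0.5 RPKM (15.7%) had all 6 libraries with DAN above both untreated ones, and 293 of them were also at least 2-fold higher at 1 µg/ml. Of the 293, 179 (61.1%) lay inside the window between the doses, 71 (24.2%) lay above it, higher again at 10 µg/ml, and 43 (14.7%) lay below it, lower again at 10 µg/ml. Of all 10957 genes, 6895 (62.9%) lay inside the same window, which is near the share among the 293. The 61.1% was taken after the condition that all 6 libraries with DAN lie above both untreated ones. Before it, 406 genes were at least 2-fold higher at 1 µg/ml, of which 207 (51.0%) lay inside the window, 89 (21.9%) above it and 110 (27.1%) below it. The difference between these shares was not tested. The mirror rule, with the level at 1 µg/ml at most 1/2 of untreated and all 6 libraries with DAN below both untreated ones, was met by 651 genes. Of these 245 (37.6%) lay inside the window, while 323 (49.6%) lay below it and 83 (12.7%) above it. Both rules choose on all 8 libraries, those at 10 µg/ml included. Before the condition on single libraries, 907 genes were at most at 1/2 of untreated at 1 µg/ml and 331 of them (36.5%) lay inside the window. The difference between the rules was not tested. The ratio of 10 over 1 µg/ml had a median of 1.01 over the 293 genes and showed no empty zone at the window's edges, with 40 genes above the window up to a ratio of 1.5 and 23 below it down to the reciprocal of 1.5. Seen from the higher dose, 404 genes were at least 2-fold above untreated at 10 µg/ml with all 6 libraries apart, and 147 of them (36.4%) were plateau genes.

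**Figure D3:**
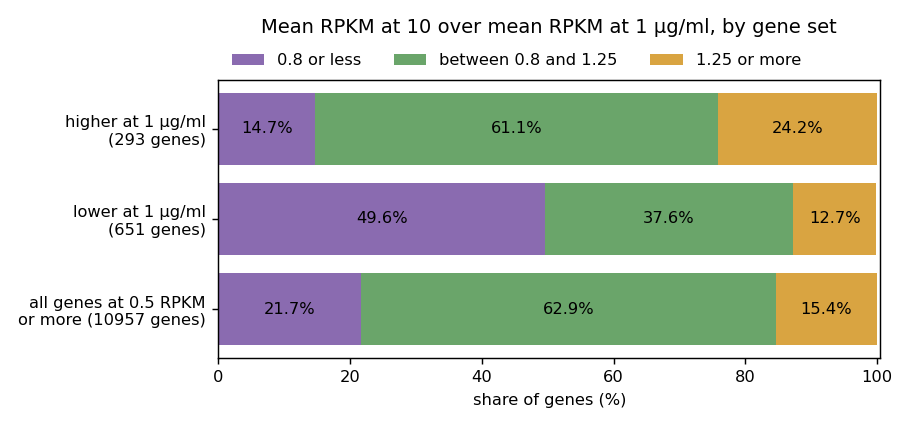
Shares of genes by the ratio of mean RPKM at 10 over 1 µg/ml, for the 293 genes at least 2-fold higher at 1 µg/ml with all 6 libraries with DAN above both untreated ones, the 651 genes of the mirror rule, and all 10957 genes with an untreated mean of at least 0.5 RPKM. The middle class holds 61.1%, 37.6% and 62.9% of these sets.

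The 95% intervals of the ratio between the doses were wider than the window. In the fit of edgeR's quasi-likelihood model to the counts of all genes, the log2 fold change of 10 over 1 µg/ml ran from -0.32 to 0.31 over the plateau genes with a median of -0.03, a range that the rule sets. Its 95% interval held 0 for 179 of 179 genes and lay wholly inside the window for 0 of them. The interval reached a factor of 1.56 to either side of the estimate in the median gene, from 1.26 where it was narrowest to 3.14 where it was widest, and its median over all genes tested was 1.55. The fit gives each gene a single spread for all libraries, so a gap between the untreated libraries also widens this interval. The part of that gap in the widths was not tested. For 136 genes (76.0%) the interval stayed within 2-fold in both directions, and for 43 it did not. The counts of intervals follow from the rule and from the widths of the intervals, and do not show that the doses were equal. They were not made over all genes tested. In the gene with the narrowest interval, 7.00 and 7.95 RPKM in untreated cells stood beside 17.0, 15.5 and 19.1 RPKM at 1 µg/ml and 16.7, 14.1 and 14.7 RPKM at 10 µg/ml, with a log2 fold change between the doses of -0.18 (95% interval -0.52 to 0.16). In the gene with the widest, 1.49 and 23.9 RPKM in untreated cells stood beside 77.4, 25.1 and 45.4 RPKM at 1 µg/ml and 48.5, 65.8 and 58.8 RPKM at 10 µg/ml, with 0.23 (-1.42 to 1.88). The gap between those untreated values enters the width of that interval.

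**Figure D4:**
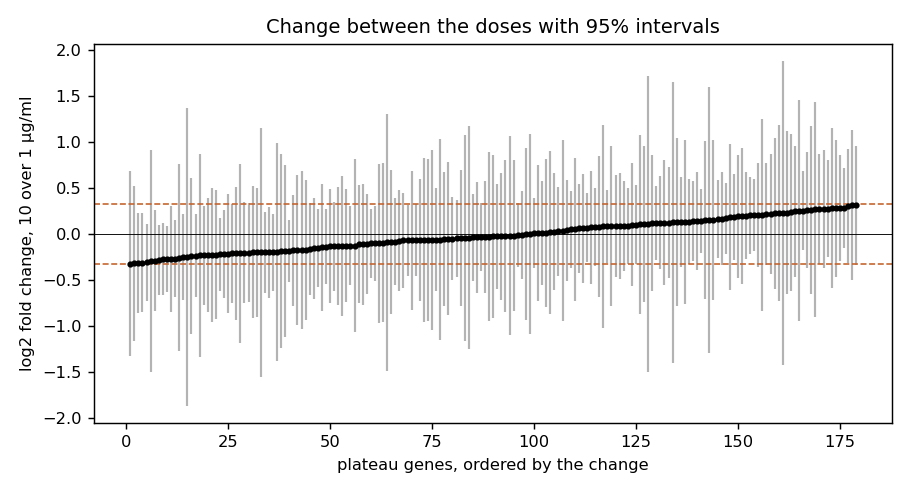
Log2 fold change of 10 over 1 µg/ml for each plateau gene, in order of size, with its 95% interval in grey; dashed lines mark the window that the rule set. Every interval crosses 0 and none lies between the dashed lines, which the rule and the widths of the intervals fix.

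Between the doses 98 plateau genes had the lower mean at 10 µg/ml and 81 the higher one. The 3 libraries at 10 µg/ml overlapped with those at 1 µg/ml for 174 genes, lay wholly above them for 2 and wholly below for 3, where 13.4% and 16.2% of the 10957 genes lay wholly above and below. The gap between the dose means was smaller than the pooled SD of the replicates for 147 genes, which the rule favours by holding the means together. That count was not made over all genes. None of the plateau genes passed the test of 10 against 1 µg/ml (0 of 179, adjusted p under 0.05 in edgeR, with a background of 0% of 14085 genes tested), and 0 had a p under 0.05 before adjustment, with a background of 11.4%. The other tools run called 0 of them too: DESeq2, which called 248 of all genes (1.76%), and limma on log2 RPKM and voom with quality weights, which called 0 of all genes. The rule held these means together, so nothing is read from these counts.

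Against untreated cells the fitted changes were of like size at both doses, as the rule asks. At 1 µg/ml 53 of the 179 plateau genes passed as higher (edgeR's quasi-likelihood test, Benjamini-Hochberg adjusted p under 0.05 over all genes), with a background of 1.51% of 14085 genes. At 10 µg/ml 106 passed, with a background of 7.23%. Of the 179, 52 passed at both doses, 1 at 1 µg/ml alone, 54 at 10 µg/ml alone and 72 at neither. No background was computed for these joint counts. The adjustment runs over all genes at each dose, so passing at 10 µg/ml alone does not mark a gene as higher at that dose alone. In this test the gene with the second largest ratio had p 3.3e-06 (adjusted 0.029) at 1 µg/ml and 5.2e-06 (adjusted 0.0039) at 10 µg/ml. The rule used these contrasts and nothing is read from the counts. The median log2 fold change was 1.197 at 1 µg/ml and 1.217 at 10 µg/ml, with a median SE of 0.32 at both, while over all genes tested the medians were -0.03 and -0.02. The 53 genes that passed at 1 µg/ml and the 126 that did not had median ratios of 2.33 and 2.30. They differed in level (median untreated mean 4.81 and 1.52 RPKM), in SE (median 0.21 and 0.37), in length (median 2703 and 1706 bases) and in how far the untreated libraries lay apart (median ratio of the higher to the lower 1.29 and 1.86). At like ratios the test passes the genes with the smaller SE, so the split itself favours such differences and nothing is read from them. For the lower dose, leaving out replicate 1, 2 or 3 at 1 µg/ml left 1, 1 or 0 calls among the 179 genes and 1, 3 or 1 among all genes. Leaving out replicate 1, 2 or 3 at 10 µg/ml left 0, 4 or 0 among the 179 and 0, 12 or 0 among all. For the higher dose, dropping its replicate 1, 2 or 3 left 31, 74 or 61 calls (1.41%, 4.64% or 3.00% of all). Dropping replicate 1, 2 or 3 at 1 µg/ml left 88, 90 or 83 (5.22%, 5.05% or 4.81%). With untreated replicate 2 left out, the median log2 fold change of the 179 genes was 1.036 at 1 µg/ml and 1.007 at 10 µg/ml. With untreated replicate 3 left out it was 1.503 and 1.522. Over all alternatives the counts among the 179 ran from 0, with 0% of all genes under voom with quality weights, to 146, with 7.53% under DESeq2, at 1 µg/ml. At 10 µg/ml they ran from 4, with 0.156%, to 151, with 12.2%, under the same tools. DESeq2 thus also called more of all genes than voom with quality weights did, at both doses.

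The plateau genes differed between the untreated libraries mostly in 1 direction. Untreated replicate 3 was above untreated replicate 2 for 137 of the 179 genes (76.5%), against 53.7% of the 10957 genes. It was at least 2-fold higher for 47 (26.3%, against 10.6%) and at least 4-fold higher for 15 (8.38%, against 2.27%), while the reverse, replicate 2 at least 2-fold above replicate 3, held for 6 (3.35%, against 10.4%). In the shares of the 10957, genes with 0 RPKM in replicate 2 were not counted as higher in replicate 3. Genes with 0 RPKM in replicate 3 were counted in the reverse share. No plateau gene had 0 in either library. With all genes counted, replicate 3 was the higher one for 54% of the 10957. The plateau gene with the widest gap had 0.052 and 1.04 RPKM in the untreated libraries, from 8 and 295 counts, against 2.00, 2.30 and 3.19 RPKM at 1 µg/ml and 2.45, 2.57 and 3.16 RPKM at 10 µg/ml. The untreated mean is part of the rule, and its part in this imbalance was not tested. Among the genes that were higher again at 10 µg/ml untreated replicate 3 was the higher one for 57 of 71, and among those lower again for 28 of 43.

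**Figure D5:**
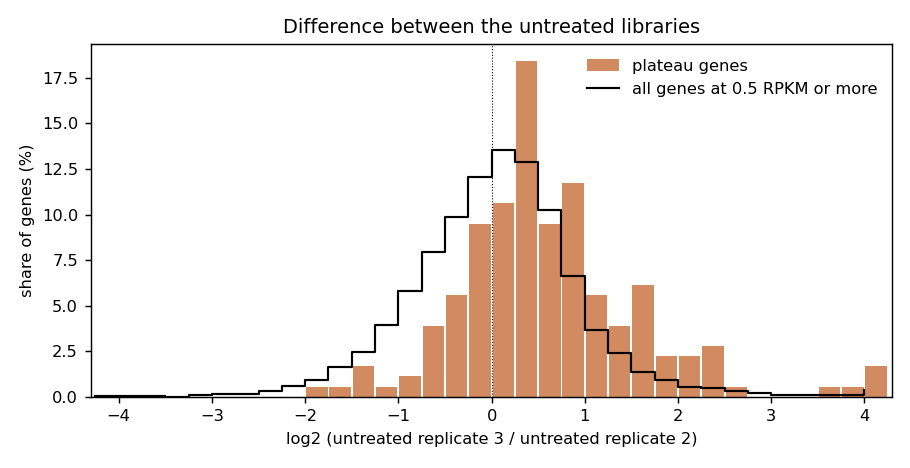
Distribution of log2 of untreated replicate 3 over untreated replicate 2 for the plateau genes (bars) and for genes with an untreated mean of at least 0.5 RPKM (line), as a share of each set. The line covers the 10929 such genes above 0 RPKM in both libraries, and values beyond the axis are in the end bins. Replicate 3 is the higher one for 76.5% of plateau genes and 53.7% of all genes, with those at 0 in replicate 2 not counted as higher.

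The size of the change depended on the untreated library it was measured against. The mean at 1 µg/ml was a median of 2.86 times untreated replicate 2 and 2.07 times untreated replicate 3, and the mean at 10 µg/ml 2.88 and 2.03 times. It was at least 2 times replicate 2 for 158 genes at 1 µg/ml, at least 2 times replicate 3 for 102, and at least 2 times both for 81. The lowest library with DAN was a median of 1.49 times the highest untreated one, and at least 2 times for 14 genes. The rule sets much of these counts by its fold limit and its separation of the groups, and they were not made over all genes. Applied without untreated replicate 2 the rule gave 201 genes, of which 95 were among the 179, and without untreated replicate 3 it gave 578, of which 137 were among them. Leaving out 1 library with DAN gave 164 to 207 genes, of which 136 to 163 were among the 179.

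With DAN, replicate 1 at 10 µg/ml stood out most often. It was the highest of its group for 98 plateau genes (54.7%), against 34.8% of the 10957 genes, and replicate 2 was the lowest for 78 (43.6%, against 38.1%). Replicate 1 was also the highest for 41 of the 71 genes higher again at 10 µg/ml (57.7%), and for 13 of the 43 lower again (30.2%). At 1 µg/ml replicate 3 was the highest for 77 (43.0%, against 35.2%) and replicate 2 the lowest for 73 (40.8%, against 30.9%). Genes of a set share their libraries, so these shares describe the libraries and carry no test.

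By abundance, the plateau genes became scarcer from low to high untreated level. They were 50 of 1313 genes between 0.5 and 1 RPKM (3.81%), 77 of 3523 between 1 and 5 RPKM (2.19%), 43 of 2696 between 5 and 20 RPKM (1.59%) and 9 of 3425 above 20 RPKM (0.263%). Their median ratio at 1 µg/ml was 2.48, 2.29, 2.22 and 2.35 in these classes, and the interval between the doses reached a factor of 1.74, 1.52, 1.45 and 1.45 to either side. The lowest class thus held the most plateau genes per gene measured and the widest intervals, and the part of measurement error in that share was not tested. Of the 293 genes with any ratio between the doses, the same classes held 82, 127, 65 and 19. Of the 651 genes of the mirror rule they held 146, 305, 118 and 82. Both sets also became scarcer with level per gene measured, so this was not particular to the plateau genes.

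By length, the plateau genes were spread more evenly. Their median length of 2017 bases, from 71 to 9784, was close to the 1994 bases of the 10957 genes, and in 4 classes of those genes with equal numbers, from short to long, they made up 1.42%, 1.83%, 1.90% and 1.39%. Genes lowered by the mirror rule numbered 240, 182, 119 and 110 in the same classes. The ratio of untreated replicate 3 to replicate 2 moved with length: its median over plateau genes was 1.51 in the shortest class and 1.27 in the longest, and over all genes 1.32 and 0.825. The part of this trend in the choice of genes was not tested. The shortest plateau gene, of 71 bases, had 4.57 and 4.39 RPKM in untreated cells, 12.4, 8.73 and 9.04 RPKM at 1 µg/ml and 7.46, 11.1 and 8.42 RPKM at 10 µg/ml, from 18 to 185 counts per library. The longest had 0.534 and 0.877 RPKM in untreated cells, 1.27, 1.64 and 1.45 RPKM at 1 µg/ml and 1.49, 1.57 and 1.48 RPKM at 10 µg/ml. These extremes of length overlapped between the doses in the same way as the set.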

How the data were processed

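The deposited tables hold raw read counts by Ensembl ID and RPKM of the same genes. Per the submitters' processing notes the tools were bedtools, edgeR 3.12.0, FastQC 0.10.1 and TopHat2 2.0.13, and the build galGal4; the sources used here do not give counting rules or strand. Over 5133 genes above 5 RPKM throughout, count over RPKM scaled as TMM-adjusted library totals do, and gene lengths were taken from it.

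The plateau genes and all lists were chosen with earlier results of these data known. Counts of all 8 libraries entered 1 quasi-likelihood fit (edgeR 4.0.16, R 4.3.3) with group means, TMM scaling and filterByExpr at a minimum count of 10, leaving 14085 genes and all 179 plateau genes. Tests were 2-sided. Standard errors and 95% intervals came from the same fit. They were tested on simulated counts for 10 µg/ml against untreated, in genes not chosen by the rule. The simulation gave each gene the same spread in all libraries, while the real untreated pair differed more than other replicates did. It therefore cannot show how well the standard errors and intervals hold against the real untreated libraries. Coverage of the intervals in genes chosen by the rule, or between the doses, was not tested. The rule for named genes gave 2 IDs, those with the largest ratio and the highest level with DAN; the traits by which other genes are described were chosen after their values were seen. Marker and pathway lists could not be read, as no ID was paired with a symbol. The labels call the replicates biological; p-values measure the spread between these libraries. Alternatives used DESeq2 1.42.0 and limma 3.58.1. Counts come from amplified cDNA without molecular identifiers.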

Additional observations from a re-analysis of the deposited data

How the results depend on the processing

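The rule gave 697 genes with a minimum ratio of 1.5, 30 with a minimum of 3, and 94 with the window narrowed to 0.9 and its reciprocal, by construction; over the libraries left out in turn it gave 164 to 578. Rescaling to median-of-ratios size factors kept 164 of the 179 genes, and scaling to library size alone kept 148. The number of the 179 genes called at 1 µg/ml (53) became 146 with DESeq2 (7.53% of all genes called), 0 with voom quality weights and 0 with only the groups compared (both 0%), and 0 to 135 with 1 library left out (0% to 13.4%). The number called at 10 µg/ml (106) became 4 with voom quality weights (0.156%) and 46 with only the groups compared (2.16%), and 31 to 139 with 1 library left out (1.41% to 18.5%). Quality weights were 1.02 to 2.35 for libraries with DAN, and 0.334 and 0.329 for the untreated ones. The cause was not tested. Under all 17 alternatives 0 plateau genes were called between the doses; over all genes DESeq2 called 248 (1.76%), the fit without replicate 2 at 10 µg/ml called 1, and the others 0.

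The labels do not say that equal replicate numbers mark shared batches. Between the doses, deviations of same-numbered libraries correlated at 0.131, 0.185 and 0.0563 and those of different numbers at -0.145 to 0.0442. Each library with DAN thus correlated best with its own number, though for replicate 3 by little (0.0563 against 0.0442 and 0.0262). Deviations from a group mean cancel within the group, so these values are not independent. The order comes from the data and not from the design, and whether it marks shared batches was not tested. With untreated libraries the same-numbered values were -0.0252 to 0.0299. As not every value passed 0.1, the libraries were not treated as paired. With a replicate block, 1 plateau gene was called at 1 µg/ml (0.0071% of all genes) and 71 at 10 µg/ml (3.45%). With 1 untreated library left out, the spread comes from the libraries with DAN alone. Depth limits the 8 genes with fewer than 10 counts in some library.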
